A study of Mus musculus with 16 samples.

Results

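The response of the SHP knockout liver to a western diet was measured on 8 of the 16 arrays of the series. The 4 SHPKO_WestD arrays hold liver RNA of SHP-/- mice on western diet, and the 4 SHPKO_Chow arrays hold that of SHP-/- mice on chow. The other 8 arrays, 4 WT_WestD and 4 WT_Chow, hold liver RNA of wild type mice on the same 2 diets. All 16 mice were males of the C57Bl/6Hsd strain, aged 10 months, with 1 mouse and 1 Illumina BeadChip array each. Chow or western diet was given for 6 months, starting at 4 months of age, and livers were taken after a night without food. The groups were chosen by the labels alone. How the SHP-/- allele was made and what the western diet contained are not given in the sources used here. Values are background-corrected, quantile-normalized log2 intensities. A difference is the mean of the western diet arrays minus that of the chow arrays of the same genotype, with its standard error (±). That error comes from 1 variance per gene, shared by all 4 groups, so a gene's ± is the same in both genotypes. A gene passed when limma's two-sided test across all 9095 genes gave a Benjamini-Hochberg adjusted p below 0.05.

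Nr0b2 encodes SHP, the small heterodimer partner, a member of the nuclear receptors that lacks the domain for binding DNA. Bile acids that activate the receptor FXR raise its level, and it then represses genes such as Cyp7a1, which encodes the enzyme that limits the rate at which bile acids are made. Cholesterol in the diet acts on the liver through 2 other regulators. Sterols hold back SREBP2, the activator of the cholesterol synthesis genes, and oxidized sterols activate LXR, which turns on sterol export genes and Srebf1, the activator of fatty acid synthesis. A long western diet also brings fat storage, macrophages that take up lipid, and scar tissue to the mouse liver.

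The raw signal averaged 282 to 358 per SHPKO_WestD array and 264 to 327 per SHPKO_Chow array, and 45.0% to 47.3% of the 25697 probes were detected in SHPKO_WestD and 44.8% to 46.9% in SHPKO_Chow. The liver genes Apoa1 and Ttr lay between 14.79 and 15.33 on all 8 arrays, whereas the probe for Alb read 4.31 to 5.74. The 1 probe for Nr0b2 was detected on 0 of the 16 arrays, with a raw signal of 47.1 to 55.6 in SHPKO_WestD and 53.2 to 59.7 in SHPKO_Chow, so it checked neither the deletion nor the labels. SHPKO_WestD replicate 3 stood apart from its group, with a mean correlation of 0.984 with the other 3 arrays against 0.987 to 0.989 for those, and the count of calls is also given without it. Whole liver was measured, so fewer cells of a type and less RNA per cell cannot be told apart. Nothing says that the mice were from separate litters or cages. The p-values measure the spread between mice within all the groups of both genotypes, not within the knockout groups alone.

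Western diet changed 717 of the 9095 genes in knockout liver (7.88%), 411 higher (4.52%) and 306 lower (3.36%) than on chow, and 55 of the rises and 23 of the falls exceeded 2-fold. The 4 western and the 4 chow values did not overlap in 1307 genes (14.4%). These shares of all genes are the measure for the counts given below for each gene list, and no list was tested as a set. With median scaling in place of quantile normalization, 297 genes rose and 50 fell, so that 85.6% of the calls were rises against 57.3%, and the median difference of all genes was 0.05 against -0.01. Without SHPKO_WestD replicate 3, 323 rose and 230 fell. Each comparison was also run in 16 fits that leave out 1 array and under 12 other settings, and named calls that these ended are given as lost. The array that mattered most was SHPKO_Chow replicate 2, without which 204 rose and 155 fell.

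Among the largest rises were an enzyme of carbon dioxide hydration, an iron hormone paralog, a sugar-binding protein and a lipoprotein. Car3, which encodes the cytosolic carbonic anhydrase 3, read 11.50, 11.95, 12.36 and 11.17 in SHPKO_WestD, against 9.17, 8.24, 9.93 and 9.47 in SHPKO_Chow. Every western value exceeded every chow value by more than 1 log2 unit, and the fitted rise was 5.82-fold (2.54 ± 0.39, adjusted p = 0.000972). Hamp2, a paralog of the iron hormone hepcidin, read 7.54, 10.41, 8.15 and 7.62 in SHPKO_WestD, against 6.12, 5.54, 6.81 and 6.65 in SHPKO_Chow. SHPKO_WestD replicate 2 was the highest by far, though the groups did not overlap (4.43-fold, 2.15 ± 0.48, adjusted p = 0.0112). Lgals1, which encodes galectin-1, read 8.40, 9.10, 8.26 and 7.96 in SHPKO_WestD, against 6.36, 6.35, 6.28 and 6.63 in SHPKO_Chow. The groups were apart by more than the range of either, a 4.07-fold rise (2.03 ± 0.21, adjusted p = 4.02e-05). The apolipoprotein gene Apoa4 rose 4.00-fold (2.0 ± 0.37, adjusted p = 0.00412), and Inmt, an N-methyltransferase of indole amines, 3.57-fold (1.84 ± 0.28, adjusted p = 0.000925). The rest of the 12 largest rises without overlap were Cyp2c70, the kinase gene Aatk, Scd1, Tceal8, Rgn, Chac1 and Nudt7, at 2.85-fold to 3.33-fold.

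The largest falls included a step of cholesterol synthesis, a chemokine and a stress gene. Cxcl13, the chemokine that draws B cells, read 4.68, 5.15, 5.03 and 5.68 in SHPKO_WestD, against 8.19, 7.5, 6.94 and 6.76 in SHPKO_Chow. All 4 western arrays were below all 4 chow arrays, a 4.63-fold fall (-2.21 ± 0.53, adjusted p = 0.0170). Gadd45b, a stress-induced gene, read 5.61, 5.26, 4.46 and 4.54 in SHPKO_WestD, against 7.0, 7.65, 6.08 and 7.83 in SHPKO_Chow. The groups did not overlap and the spread was wide in both (4.51-fold lower, -2.17 ± 0.30, adjusted p = 0.000505). Slco2a1, which encodes a prostaglandin transporter, fell 2.98-fold (-1.57 ± 0.12, adjusted p = 8.17e-07). Tuba8, an alpha tubulin gene, was at background in SHPKO_WestD, that is, detected on none of its arrays, and was at least 2.02-fold lower there (adjusted p = 0.00135). Tfrc, the transferrin receptor that takes up iron, was 2.23-fold lower (-1.16 ± 0.24, adjusted p = 0.00693). Igfbp2, a binding protein of insulin-like growth factors, was 2.33-fold lower (-1.22 ± 0.25, adjusted p = 0.00605), and Ccn2, a secreted matrix-associated growth factor, 2.48-fold lower (-1.31 ± 0.30, adjusted p = 0.0130). Leaving out 1 array in turn ended the calls of Cxcl13 (without SHPKO_Chow replicate 1, highest adjusted p 0.0533, and also with a robust variance prior, adjusted p 0.0593) and Ccn2 (without SHPKO_Chow replicate 2, highest adjusted p 0.0516).

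**Figure D1:**
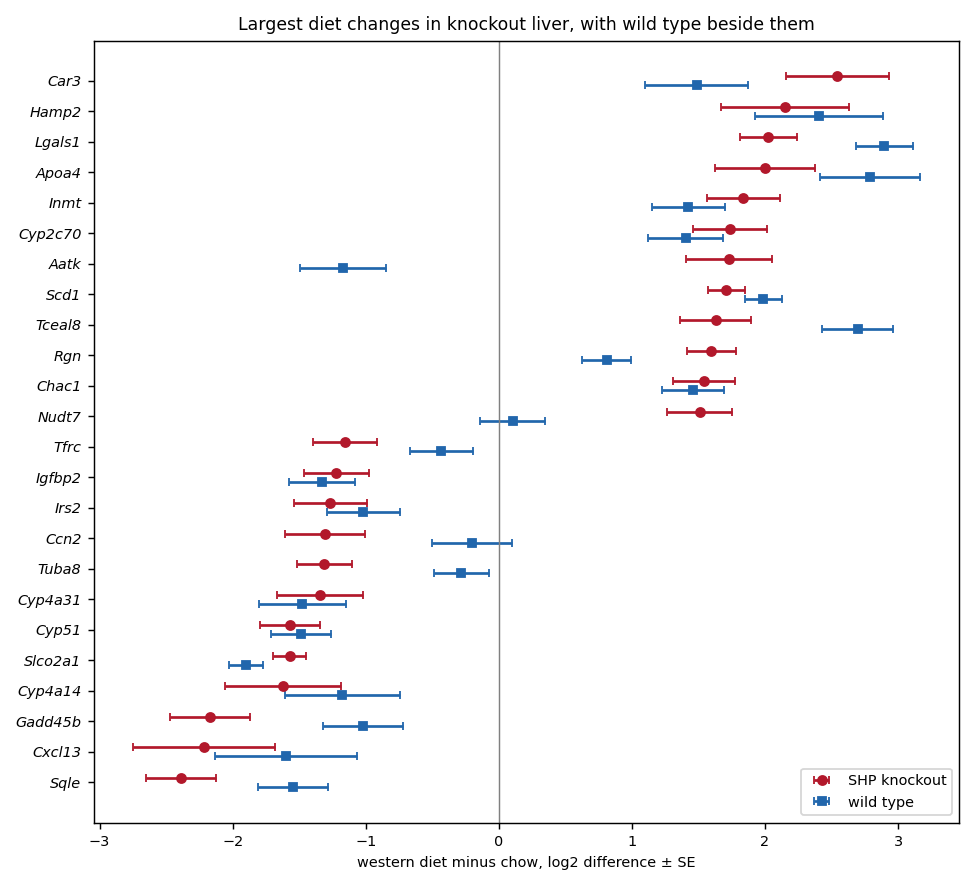
Western diet minus chow on the log2 scale, with standard errors, for the 12 largest rises and 12 largest falls in knockout liver among genes past the test with no overlap of the groups, with the wild type difference below each (circles, knockout; squares, wild type; 4 arrays a group). Car3 is highest at 2.54 and Sqle lowest at -2.39, and Aatk lies on opposite sides of 0, at 1.73 in knockout and -1.17 in wild type. Tuba8, at background in SHPKO_WestD, is drawn at its fitted value.

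Of the 20 cholesterol synthesis genes listed, 15 were measured. On western diet 7 of these fell and 0 rose, and the list's median difference was -0.63 against -0.01 over all genes. Sqle, squalene epoxidase, which commits squalene to sterols, read 5.18, 4.98, 6.18 and 4.63 in SHPKO_WestD, against 8.20, 7.17, 7.59 and 7.56 in SHPKO_Chow. SHPKO_WestD replicate 3 was the highest western array, yet below every chow array, and the fall was 5.23-fold (-2.39 ± 0.26, adjusted p = 4.95e-05). Cyp51, the lanosterol demethylase, read 5.93, 6.04, 6.77 and 5.58 in SHPKO_WestD, against 8.27, 7.21, 7.31 and 7.81 in SHPKO_Chow. It showed the same order, with replicate 3 highest on western diet and no overlap (2.97-fold lower, -1.57 ± 0.23, adjusted p = 0.000615). The sterol reductase gene Tm7sf2 read 7.01, 6.89, 7.36 and 6.54 in SHPKO_WestD, against 8.15, 7.93, 8.14 and 8.05 in SHPKO_Chow, without overlap (-1.11 ± 0.17, adjusted p = 0.000877).

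The remaining members that fell lie earlier in the pathway or act late in it. Idi1 (-0.79 ± 0.19, adjusted p = 0.0173) encodes the isomerase of the isoprenoid units and Mvd (-0.72 ± 0.21, adjusted p = 0.0406) the decarboxylase that makes them. Hmgcs1 (-0.63 ± 0.18, adjusted p = 0.0362), the HMG-CoA synthase, and Hsd17b7 (-0.50 ± 0.10, adjusted p = 0.00643), a sterol ketoreductase, are named after their values were seen. The count of falls was 4 without SHPKO_WestD replicate 4, 4 without SHPKO_Chow replicate 1 and 4 with median scaling, and the calls of Idi1 (without SHPKO_WestD replicate 4, SHPKO_Chow replicate 1 and SHPKO_Chow replicate 2, highest adjusted p 0.0570) and Mvd (6 of the 16 fits, highest adjusted p 0.123 without SHPKO_Chow replicate 1, and also in 3 of the 12 other settings, highest adjusted p 0.110 with the 8 knockout arrays alone) were lost. With median scaling the 4 left were Sqle, Cyp51, Tm7sf2 and Idi1, so the calls of Hmgcs1 and Hsd17b7 were lost there too. By the same counts, Hmgcs1, Hsd17b7 or both were lost without SHPKO_WestD replicate 4 and without SHPKO_Chow replicate 1. None of the 5 measured genes of sterol uptake and SREBP2 control passed, and Srebf2, which encodes SREBP2, read 6.77, 6.93, 6.96 and 6.34 in SHPKO_WestD, against 6.97, 7.30, 7.21 and 7.07 in SHPKO_Chow (-0.39 ± 0.14, adjusted p = 0.101).

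The promoter of Hmgcs1 is shown because it was the only promoter of the 13 matched cholesterol synthesis genes to hold the sterol regulatory element searched, TCACNCCAC, on either strand. Promoters are RefSeq's, from 250 bases before to 50 after the start, in build GRCm38.p6, and those of a single chromosome were left out. The element was in 1.47% of the 7409 tested genes with a promoter. Hmgcs1 lies on the plus strand, its window is chr13:119690101-119690400, and the match, in capitals, starts 137 bases before the start, on the same strand.
Hmgcs1: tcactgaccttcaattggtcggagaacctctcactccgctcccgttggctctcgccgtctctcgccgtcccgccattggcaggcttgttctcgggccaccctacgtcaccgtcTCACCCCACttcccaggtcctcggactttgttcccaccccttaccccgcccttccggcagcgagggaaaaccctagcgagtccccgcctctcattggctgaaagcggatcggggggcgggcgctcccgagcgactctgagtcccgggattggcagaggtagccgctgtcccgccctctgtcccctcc

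Of 10 measured sterol export and LXR genes, 3 rose and 0 fell, with a median of 0.30, and all 10 differences were above 0. Srebf1, the activator of fatty acid synthesis, read 6.36, 6.55, 8.14 and 6.86 in SHPKO_WestD, against 5.55, 5.05, 5.88 and 5.64 in SHPKO_Chow. SHPKO_WestD replicate 3 was more than 1 log2 unit above the other western arrays, which themselves all exceeded the chow arrays (2.73-fold, 1.45 ± 0.29, adjusted p = 0.00541). Scd1, the desaturase that makes oleate, read 14.14, 14.36, 14.56 and 14.20 in SHPKO_WestD, against 12.64, 12.30, 12.50 and 12.98 in SHPKO_Chow. The 2 diets were more than 1 log2 unit apart in every array (3.27-fold, 1.71 ± 0.14, adjusted p = 8.17e-07). Abcg5, which encodes one partner of the sterol exporter pair into bile, rose 1.39-fold (0.47 ± 0.12, adjusted p = 0.0248). Leaving out 1 array ended the call of Abcg5 (4 of the 16 fits, highest adjusted p 0.0828 without SHPKO_WestD replicate 4).

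Of 21 measured genes of fatty acid and triglyceride synthesis, 3 rose and 0 fell, with a median of 0.20: Srebf1, Scd1 and the desaturase Fads2 (0.76 ± 0.12, adjusted p = 0.00153). Without SHPKO_WestD replicate 1, 6 rose. Fasn, fatty acid synthase, read 5.19, 4.56, 5.20 and 4.50 in SHPKO_WestD, against 5.20, 4.96, 4.97 and 4.68 in SHPKO_Chow. Its groups overlapped and it did not pass (-0.09 ± 0.18, adjusted p = 0.810). These values were low, within the range of the Alb probe and near those of genes at background, so a change in Fasn could have been missed. Of 18 measured lipid droplet and PPARgamma genes, 1 rose and 1 fell, with a median of 0.34. Pparg, the nuclear receptor of fat storage, read 7.01, 7.08, 6.5 and 6.43 in SHPKO_WestD, against 5.47, 4.97, 5.09 and 5.51 in SHPKO_Chow. Its groups did not overlap (2.82-fold, 1.5 ± 0.19, adjusted p = 0.000194). Pnpla2, the triglyceride lipase, fell by 1.31-fold (-0.39 ± 0.10, adjusted p = 0.0200), and its call was lost with median scaling (adjusted p = 0.368). It was also lost on leaving out 1 array for Pnpla2 (without SHPKO_WestD replicate 1 and SHPKO_Chow replicate 1, highest adjusted p 0.0688).

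The droplet coat genes Cidea and Cidec, known as PPARgamma targets, did not pass in knockout. Cidea read 4.86, 7.35, 5.45 and 4.34 in SHPKO_WestD, against 4.26, 5.03, 4.31 and 4.39 in SHPKO_Chow, with SHPKO_WestD replicate 2 far above the rest and the other values overlapping (1.00 ± 0.61, adjusted p = 0.338). Cidec read 7.21, 7.16, 6.69 and 7.25 in SHPKO_WestD, against 7.44, 6.93, 6.20 and 6.39 in SHPKO_Chow, with overlapping groups (0.34 ± 0.35, adjusted p = 0.610). In wild type liver Cidec read 10.57, 9.76, 10.71 and 10.66 in WT_WestD, against 7.73, 7.91, 7.75 and 5.93 in WT_Chow, so that all 4 western arrays were above all chow arrays. Its difference was 3.10 ± 0.35, adjusted p = 2.86e-06, and the knockout difference minus the wild type difference, called the interaction, was -2.76 ± 0.49, adjusted p = 0.00213. For Cidea the interaction was -3.71 ± 0.86, adjusted p = 0.0139, and 0.0561 with a robust variance prior.

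**Figure D2:**
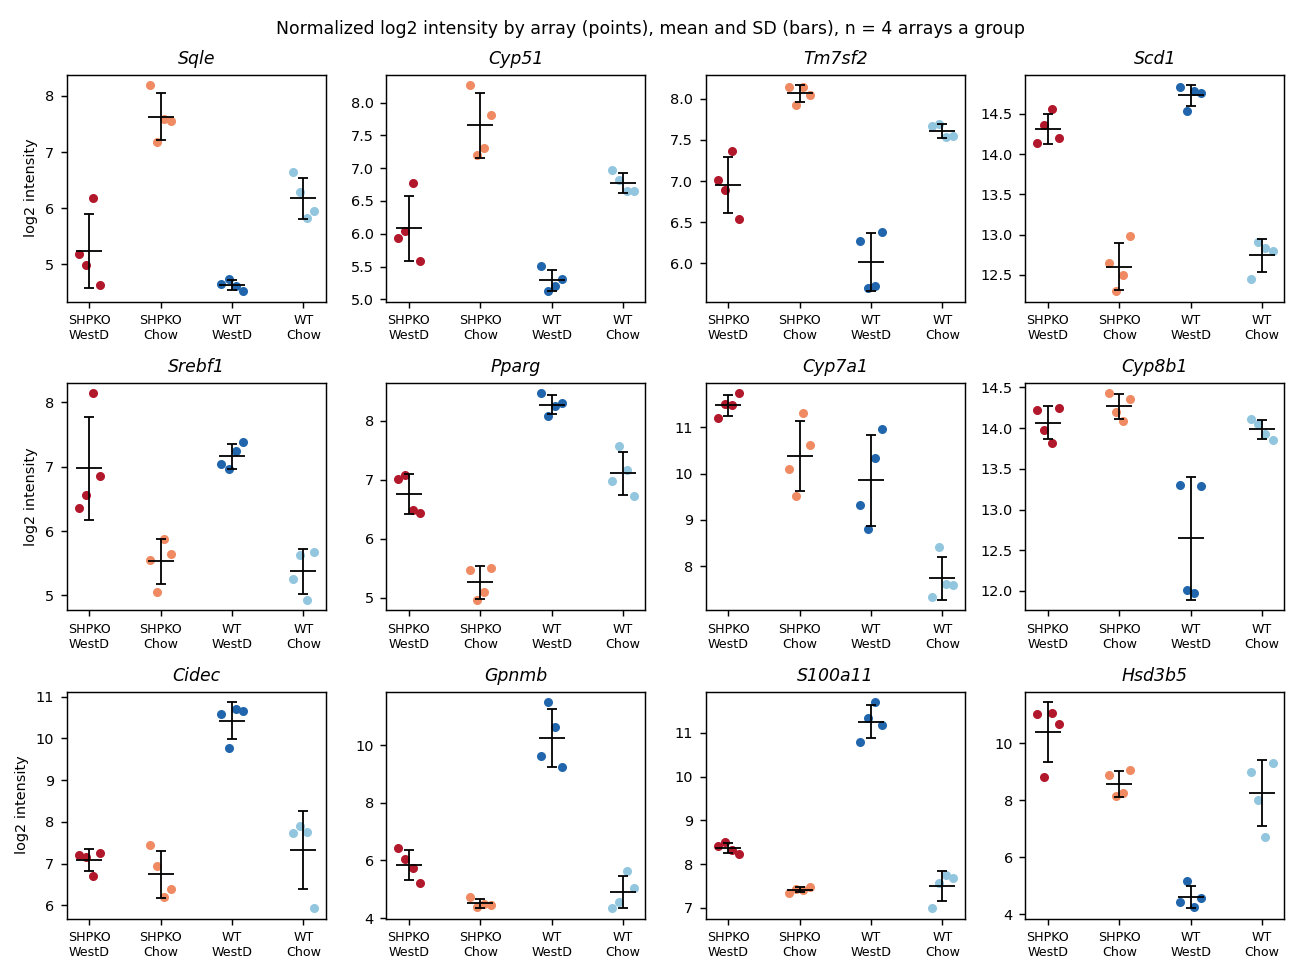
Normalized log2 intensity of 12 genes on every array (points), with the mean and SD of each group (bars, n = 4), for SHPKO_WestD, SHPKO_Chow, WT_WestD and WT_Chow from left to right. Sqle, Cyp51 and Tm7sf2 were lower and Scd1, Srebf1 and Pparg higher on western diet in both genotypes, whereas Cidec, Gpnmb and S100a11 were highest in WT_WestD.

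Bile acid synthesis changed in single members. Of 14 measured genes, 2 rose and 1 fell, with a median of 0.03. Cyp2c70, which makes the muricholic acids of the mouse, read 12.32, 12.34, 13.59 and 12.52 in SHPKO_WestD, against 11.03, 10.53, 10.83 and 11.42 in SHPKO_Chow. SHPKO_WestD replicate 3 was the highest, and the groups did not overlap (3.33-fold, 1.74 ± 0.28, adjusted p = 0.00140). Akr1c6 (0.83 ± 0.19, adjusted p = 0.0112), a hydroxysteroid dehydrogenase, also rose, and Hsd17b4 (-0.45 ± 0.09, adjusted p = 0.00634), which acts in the peroxisomal shortening of the side chain, fell. The fall of Hsd17b4 was not called with median scaling (adjusted p = 0.298).

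Cyp7a1 itself read 11.20, 11.51, 11.47 and 11.74 in SHPKO_WestD, against 10.10, 9.52, 11.30 and 10.62 in SHPKO_Chow. The western values were close together and the chow values wide apart, with SHPKO_Chow replicate 3 inside the western range, and the difference did not pass (1.09 ± 0.38, adjusted p = 0.0890). Without SHPKO_Chow replicate 3 it passed (adjusted p = 0.0357), as it did with the 8 knockout arrays alone (adjusted p = 0.0402). Cyp8b1, the sterol 12-alpha-hydroxylase that sets cholic acid output, read 14.22, 13.97, 13.82 and 14.25 in SHPKO_WestD, against 14.43, 14.20, 14.09 and 14.36 in SHPKO_Chow. The groups overlapped (-0.20 ± 0.24, adjusted p = 0.662), and in wild type it fell (-1.34 ± 0.24, adjusted p = 0.000329). The interaction of Cyp8b1 was 1.14 ± 0.34, adjusted p = 0.0472. That call was lost on leaving out 1 array for Cyp8b1 (13 of the 16 fits, highest adjusted p 0.0991 without WT_WestD replicate 2, and also in 3 of the other settings, highest adjusted p 0.0980 with a robust variance prior). None of 10 measured bile acid and organic anion transporters passed. The bile salt export pump gene Abcb11 was -0.03 ± 0.15 and the uptake transporter genes Slco1b2 and Slco2b1 were 0.59 ± 0.20 and 0.30 ± 0.12 (adjusted p = 0.924, 0.0851 and 0.130). Slco1b2 passed without WT_WestD replicate 1 or WT_Chow replicate 4 (lowest adjusted p = 0.0476), with median scaling (0.0373) and with the 8 knockout arrays alone (0.0329).

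Of 17 measured fatty acid oxidation and PPARalpha genes, 4 fell and 0 rose, with a median of -0.47. Cyp4a14, a fatty acid omega-hydroxylase and PPARalpha target, read 13.70, 13.76, 10.92 and 14.03 in SHPKO_WestD, against 14.64, 14.87, 14.66 and 14.74 in SHPKO_Chow. SHPKO_WestD replicate 3 was far below the rest, and all western arrays were below all chow arrays (3.07-fold lower, -1.62 ± 0.43, adjusted p = 0.0278). Without replicate 3 the difference was -0.89. Its paralog Cyp4a31 (-1.34 ± 0.32, adjusted p = 0.0170), whose transcripts may bind the same probes, was -0.87 without that array.

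Ppargc1a (-0.85 ± 0.17, adjusted p = 0.00602), the coactivator of the fasting response, Angptl4 (-0.75 ± 0.19, adjusted p = 0.0196), a fasting-induced inhibitor of lipoprotein lipase, and Ehhadh (-1.16 ± 0.35, adjusted p = 0.0459), a peroxisomal oxidation enzyme, also fell. The fasting hormone gene Fgf21 read 8.30, 7.41, 6.23 and 8.31 in SHPKO_WestD, against 7.84, 8.36, 7.48 and 8.62 in SHPKO_Chow, with overlapping groups (-0.51 ± 0.34, adjusted p = 0.388). Without SHPKO_WestD replicate 3, its lowest array, the difference was -0.07 (adjusted p = 0.913). The count of falls was 2 without SHPKO_WestD replicate 3, SHPKO_Chow replicate 1 or SHPKO_Chow replicate 4, and 1 without SHPKO_Chow replicate 2. Calls were lost for Cyp4a14 (without SHPKO_Chow replicate 1, SHPKO_Chow replicate 2 and SHPKO_Chow replicate 4, highest adjusted p 0.0731, and also in 2 of the 12 other settings, highest adjusted p 0.0855 with a robust variance prior), Cyp4a31 (without SHPKO_Chow replicate 1, highest adjusted p 0.0533, and also in 2 of the 12 other settings, highest adjusted p 0.0577 with a robust variance prior), Angptl4 (without SHPKO_WestD replicate 3 and SHPKO_Chow replicate 2, highest adjusted p 0.0637, and also with median scaling, adjusted p 0.103) and Ehhadh (11 of the 16 fits, highest adjusted p 0.160 without SHPKO_Chow replicate 2, and also in 6 of the 12 other settings, highest adjusted p 0.116 with a robust variance prior).

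Of 13 measured genes of gluconeogenesis and glucose handling, 2 rose and 3 fell, with a median of -0.11. G6pc, glucose-6-phosphatase, the last step of glucose release, read 11.21, 11.54, 10.95 and 11.44 in SHPKO_WestD, against 12.40, 12.15, 12.14 and 12.82 in SHPKO_Chow. The groups did not overlap (2.14-fold lower, -1.09 ± 0.18, adjusted p = 0.00182). Irs2 (-1.27 ± 0.27, adjusted p = 0.00913), an insulin receptor substrate, and Igfbp1 (-1.49 ± 0.35, adjusted p = 0.0143), a binding protein that fasting raises, fell as well. The glucose transporter gene Slc2a2 (0.86 ± 0.21, adjusted p = 0.0188) and Khk (0.89 ± 0.18, adjusted p = 0.00716), the fructokinase, rose. Pck1, the gluconeogenic carboxykinase, read 8.76, 8.81, 7.94 and 9.53 in SHPKO_WestD, against 8.82, 9.10, 9.39 and 8.85 in SHPKO_Chow, with overlapping groups (-0.28 ± 0.23, adjusted p = 0.503). Without SHPKO_WestD replicate 3 the difference of Pck1 was -0.0024 (adjusted p = 0.996). The calls ended for Igfbp1 (without SHPKO_Chow replicate 2, highest adjusted p 0.0543) and Slc2a2 (without SHPKO_Chow replicate 2, highest adjusted p 0.0607, and also with the mean of its probes, adjusted p 0.102).

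Of 23 measured interferon response genes, 8 rose and 0 fell, 22 differences were above 0, and the median was 0.53. Ifit3, an antiviral protein with tetratricopeptide repeats, read 8.51, 8.36, 8.16 and 8.70 in SHPKO_WestD, against 7.39, 7.25, 6.95 and 7.53 in SHPKO_Chow. All western arrays were above all chow arrays (2.22-fold, 1.15 ± 0.20, adjusted p = 0.00204). Psmb9, an immunoproteasome subunit, read 8.31, 8.34, 8.23 and 8.52 in SHPKO_WestD, against 7.38, 7.35, 7.14 and 7.15 in SHPKO_Chow. Both groups were tight and did not overlap (2.13-fold, 1.09 ± 0.16, adjusted p = 0.000615). The oligoadenylate synthetase-like gene Oasl2 (0.96 ± 0.26, adjusted p = 0.0281), the guanylate-binding protein gene Gbp3 (0.93 ± 0.25, adjusted p = 0.0281) and the immunity GTPase gene Irgm1 (0.93 ± 0.15, adjusted p = 0.00160) rose too. The count was 4 without SHPKO_WestD replicate 1, SHPKO_WestD replicate 4 or SHPKO_Chow replicate 3 and 5 without SHPKO_Chow replicate 1 or 2, and calls were lost for Gbp3 (6 of the 16 fits, highest adjusted p 0.0747 without SHPKO_WestD replicate 4) and Oasl2 (5 of the 16 fits, highest adjusted p 0.0784 without SHPKO_WestD replicate 1, and also in 3 of the 12 other settings, highest adjusted p 0.0728 with the mean of its probes). Of the 10 measured lymphocyte and natural killer cell markers none passed, though all 10 differences were above 0, with a median of 0.09. Their mean level was 4.74 to 5.17 in SHPKO_WestD and 4.77 to 4.91 in SHPKO_Chow. Prf1, the pore protein of cytotoxic lymphocytes, read 8.13, 7.71, 6.41 and 8.02 in SHPKO_WestD, against 7.03, 7.07, 6.64 and 6.95 in SHPKO_Chow, with SHPKO_WestD replicate 3 below every chow array and the other 3 western arrays above them all (0.65 ± 0.26, adjusted p = 0.127, and 0.000665 without that array). The part of such cells in the interferon genes was not tested.

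The promoters of 3 of the genes that rose are shown because they hold the interferon-stimulated response element searched, which is 2 copies of GAAA with any 2 bases between them, on either strand. It was in 9 of the 20 interferon genes with a promoter (45.0%) and in 3.90% of the 7409 tested genes with one. It was in 3 of the 8 that rose and in 6 of the 12 that did not pass, so its presence in this window did not separate them. Capitals mark the matches, which overlap in Gbp3 and Irgm1. Ifit3, on the plus strand at chr19:34583279-34583578, has them 156 and 122 bases before the start on the opposite strand. Gbp3, on the plus strand at chr3:142559794-142560093, has them 45 and 39 bases before the start on the opposite strand. Another promoter window of Gbp3, at chr3:142560106-142560405, held 0 matches, and a gene was counted when any of its windows matched. Irgm1, on the minus strand at chr11:48871371-48871670, has them 30 and 24 bases before the start on the same strand.
Ifit3: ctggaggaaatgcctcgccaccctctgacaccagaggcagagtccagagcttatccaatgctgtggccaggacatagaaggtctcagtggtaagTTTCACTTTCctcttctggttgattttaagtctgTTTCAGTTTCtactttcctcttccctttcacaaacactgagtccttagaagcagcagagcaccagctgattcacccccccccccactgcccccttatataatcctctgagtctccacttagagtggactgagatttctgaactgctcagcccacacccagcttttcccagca
Gbp3: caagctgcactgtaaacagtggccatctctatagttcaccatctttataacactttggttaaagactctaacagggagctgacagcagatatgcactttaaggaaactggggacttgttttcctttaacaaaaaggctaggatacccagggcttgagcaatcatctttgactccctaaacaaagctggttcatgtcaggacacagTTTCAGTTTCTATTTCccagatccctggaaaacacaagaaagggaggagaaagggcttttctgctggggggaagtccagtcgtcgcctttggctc
Irgm1: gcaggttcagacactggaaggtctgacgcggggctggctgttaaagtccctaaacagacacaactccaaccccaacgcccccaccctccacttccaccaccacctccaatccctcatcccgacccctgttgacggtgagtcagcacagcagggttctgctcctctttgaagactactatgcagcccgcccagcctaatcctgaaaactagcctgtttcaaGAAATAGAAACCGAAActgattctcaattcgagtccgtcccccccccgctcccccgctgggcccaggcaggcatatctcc

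Of 16 measured lipid-associated macrophage genes, 5 rose and 0 fell, with a median of 0.34. Their mean level was 7.26 to 7.71 in SHPKO_WestD and 7.0 to 7.23 in SHPKO_Chow. Gpnmb, a surface glycoprotein of such macrophages, read 6.44, 6.04, 5.74 and 5.21 in SHPKO_WestD, against 4.73, 4.37, 4.48 and 4.47 in SHPKO_Chow. The groups did not overlap (1.35 ± 0.37, adjusted p = 0.0331), but 1 of its 3 detected probes pointed the other way. With the mean of its probes Gpnmb was 0.45 (adjusted p = 0.236), without background correction 0.70 (0.174) and with normexp 0.65 (0.202). Ctss (0.86 ± 0.21, adjusted p = 0.0196), a lysosomal protease, Lgals3 (0.80 ± 0.24, adjusted p = 0.0474), galectin-3, Anxa5 (0.68 ± 0.12, adjusted p = 0.00262), a membrane-binding annexin, and Apoc2 (0.59 ± 0.13, adjusted p = 0.00909), the activator of lipoprotein lipase, also rose. The count was 3 without SHPKO_WestD replicate 1, SHPKO_WestD replicate 2, SHPKO_Chow replicate 1 or SHPKO_Chow replicate 2, and 2 without SHPKO_Chow replicate 3. Leaving out 1 array ended the calls of Gpnmb (7 of the 16 fits, highest adjusted p 0.0902 without SHPKO_WestD replicate 1, and also in 5 of the 12 other settings, highest adjusted p 0.236 with the mean of its probes), Lgals3 (9 of the 16 fits, highest adjusted p 0.124 without SHPKO_WestD replicate 1, and also in 8 of the 12 other settings, highest adjusted p 0.0980 with a robust variance prior) and Ctss (without SHPKO_WestD replicate 4 and SHPKO_Chow replicate 3, highest adjusted p 0.0570).

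Of 18 measured macrophage and Kupffer cell markers, 1 rose and 0 fell: Clec4f, the Kupffer cell lectin (0.47 ± 0.13, adjusted p = 0.0298). The median was 0.23, 16 of the 18 differences were above 0, and the mean level was 7.84 to 8.19 in SHPKO_WestD and 7.62 to 7.97 in SHPKO_Chow. The call of Clec4f (6 of the 16 fits, highest adjusted p 0.0862 without SHPKO_Chow replicate 3, and also in 2 of the 12 other settings, highest adjusted p 0.0811 with median scaling) was lost. Of 32 measured chemokine, cytokine and NF-kappaB genes, 1 rose and 1 fell, with a median of -0.02: the cytokine gene Il18 (0.62 ± 0.16, adjusted p = 0.0191) rose and Cxcl13 fell. Over all genes 4.52% rose and 3.36% fell, so these counts do not set the list apart. The rise of Il18 (without SHPKO_Chow replicate 1 and SHPKO_Chow replicate 2, highest adjusted p 0.0624, and also with median scaling, adjusted p 0.0553) was lost. Of 20 measured lysosome genes, 2 rose and 1 fell, with a median of 0.12. Ctss and Hexa (0.35 ± 0.08, adjusted p = 0.0135), a hexosaminidase subunit, rose, and Grn (-0.54 ± 0.12, adjusted p = 0.00912), progranulin, fell. With median scaling Hexa and Grn did not pass (adjusted p = 0.0875 and 0.18).

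Of 15 measured annexins and S100 proteins, 4 rose and 0 fell, with a median of 0.30. S100a11, a calcium-binding protein, read 8.41, 8.51, 8.33 and 8.22 in SHPKO_WestD, against 7.35, 7.43, 7.42 and 7.48 in SHPKO_Chow. Both groups were tight and apart (1.93-fold, 0.95 ± 0.16, adjusted p = 0.00230). Anxa2 (0.96 ± 0.18, adjusted p = 0.00409), Anxa5 and S100a10 (0.47 ± 0.13, adjusted p = 0.0277) were the other 3, and the call of S100a10 (5 of the 16 fits, highest adjusted p 0.0849 without SHPKO_Chow replicate 3, and also with the 8 knockout arrays alone, adjusted p 0.0605) was lost.

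Of 28 measured fibrosis and stellate cell genes, 2 rose and 1 fell, with a median of 0.19. Beside the 4.52% of all genes that rose and the 3.36% that fell, these counts do not set the list apart. The collagen genes Col6a1 (0.90 ± 0.19, adjusted p = 0.00768) and Col3a1 (0.69 ± 0.18, adjusted p = 0.0211) rose, and Mmp14 (-0.70 ± 0.18, adjusted p = 0.0214), a membrane-bound matrix protease, fell. Col1a1, the main chain of fibrillar collagen, read 4.69, 4.85, 4.79 and 4.75 in SHPKO_WestD, against 4.56, 4.34, 4.58 and 4.54 in SHPKO_Chow. The groups did not overlap, but the values were low. Col1a1 was detected on 3 SHPKO_WestD arrays and on 0 SHPKO_Chow arrays, and the difference did not pass (adjusted p = 0.424). Their mean level was 6.58 to 6.90 in SHPKO_WestD and 6.44 to 6.66 in SHPKO_Chow. On leaving out 1 array, the test was no longer passed by Col3a1 (4 of the 16 fits, highest adjusted p 0.0664 without SHPKO_WestD replicate 3, and also in 3 of the 12 other settings, highest adjusted p 0.0636 with normexp) and Mmp14 (4 of the 16 fits, highest adjusted p 0.0706 without SHPKO_Chow replicate 4, and also with median scaling, adjusted p 0.101). Col3a1 was 0.33 without background correction and 0.31 with normexp.

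The markers of other cells were measured beside these. Of 17 endothelial markers 0 rose and 1 fell, Ehd3 (-0.51 ± 0.12, adjusted p = 0.0117), which did not pass with median scaling (adjusted p = 0.192). None of 6 measured neutrophil markers passed, with the smallest p values for Lcn2 (1.02 ± 0.35, adjusted p = 0.0794) and S100a8 (0.71 ± 0.37, adjusted p = 0.254). Lcn2 passed with the 8 knockout arrays alone (adjusted p = 0.00232) and with the replicate block (0.0393). None of 5 measured cholangiocyte markers passed (Sox9, -0.50 ± 0.22, adjusted p = 0.163; Krt23, 0.43 ± 0.40, adjusted p = 0.564), and Sox9 passed without SHPKO_Chow replicate 3 (adjusted p = 0.0248). None of 3 measured genes of adipocytes and other tissues passed (Cela1, 0.58 ± 0.19, adjusted p = 0.0661; Amy2a5, 0.44 ± 0.19, adjusted p = 0.151), with Cela1 passing without SHPKO_WestD replicate 2 (0.0222) and with median scaling (0.043). Without SHPKO_WestD replicate 3, Cela1 was 0.34 (adjusted p = 0.174) and Amy2a5 0.25 (adjusted p = 0.41).

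Of 3 measured red cell genes 2 rose: Alas2 (0.52 ± 0.10, adjusted p = 0.00460), the first enzyme of heme synthesis in red cells, and Slc4a1 (0.58 ± 0.17, adjusted p = 0.0391), their anion exchanger. Their mean level was 9.51 to 10.05 in SHPKO_WestD and 9.08 to 9.38 in SHPKO_Chow, without overlap. Slc4a1 was 0.38 without SHPKO_WestD replicate 1, and Slc4a1 (6 of the 16 fits, highest adjusted p 0.103 without SHPKO_Chow replicate 2, and also in 6 of the 12 other settings, highest adjusted p 0.0942 with the 8 knockout arrays alone) lost its call. The 19 measured hepatocyte genes averaged 11.92 to 12.06 in SHPKO_WestD and 11.81 to 11.97 in SHPKO_Chow. In these, Glul (0.64 ± 0.16, adjusted p = 0.0171), glutamine synthetase, rose and Hnf4a (-0.38 ± 0.11, adjusted p = 0.0451), the hepatocyte nuclear receptor, fell. Leaving out 1 array ended the call of Hnf4a (10 of the 16 fits, highest adjusted p 0.131 without SHPKO_WestD replicate 3, and also in 4 of the 12 other settings, highest adjusted p 0.508 with median scaling). The part of any of these cells in the other results was not tested.

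**Figure D3:**
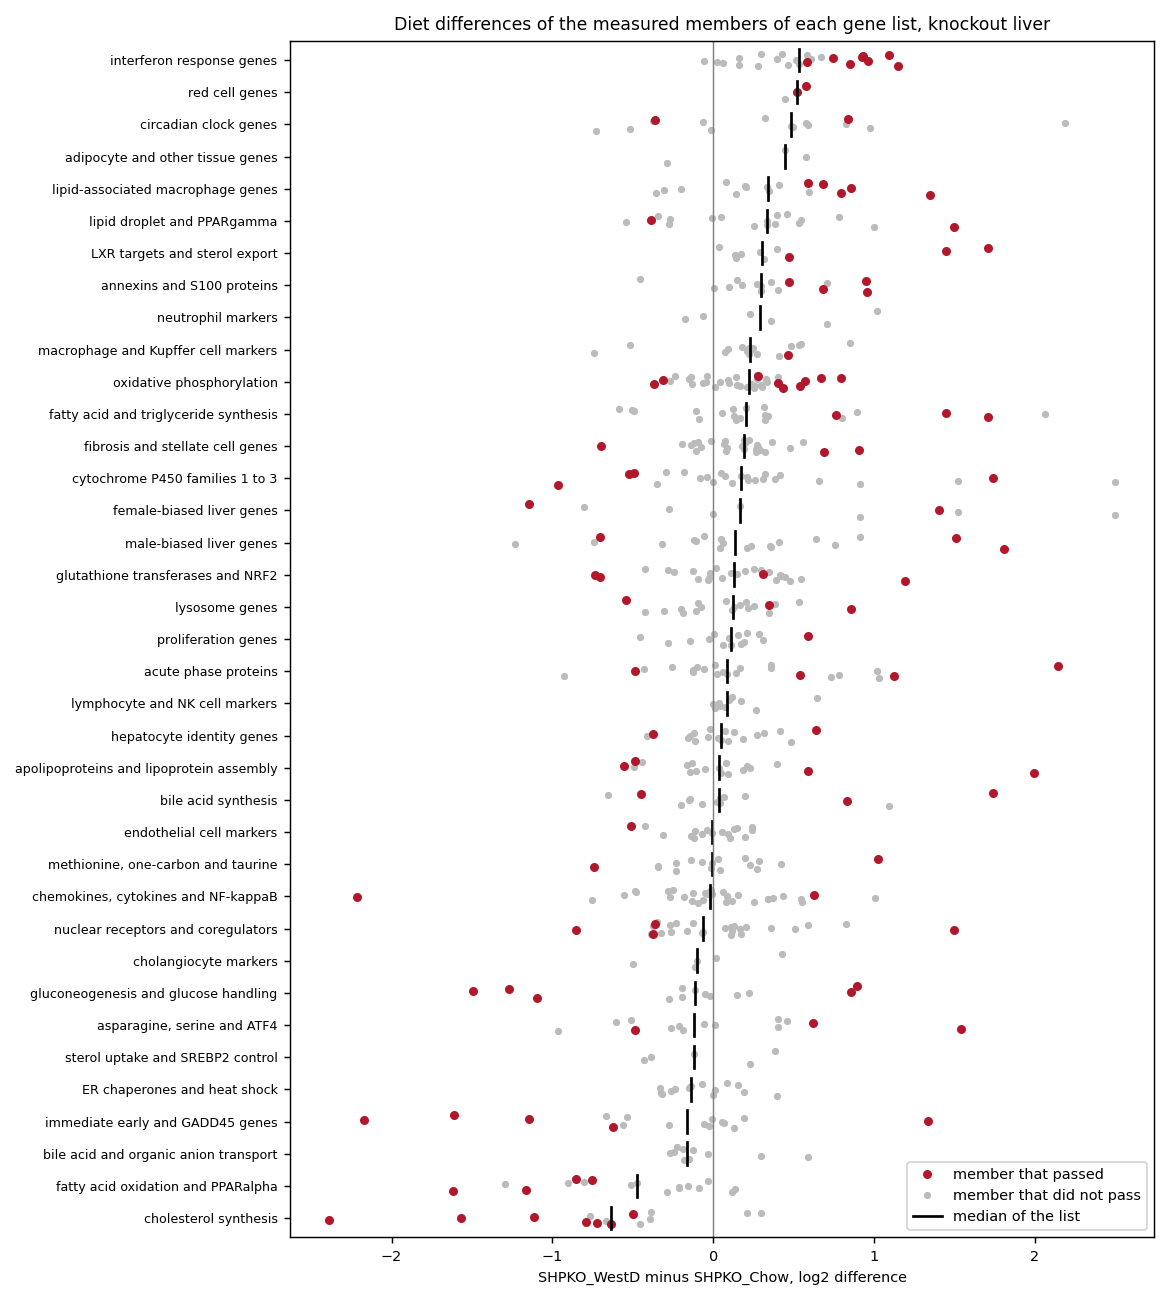
SHPKO_WestD minus SHPKO_Chow on the log2 scale for every measured member of the 37 gene lists, ordered by median (red, passed; grey, did not pass; bar, median; 4 arrays a group). Cholesterol synthesis has the lowest median, at -0.63, and the interferon genes have the highest, at 0.53.

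Of 36 measured oxidative phosphorylation genes, 7 rose and 2 fell, 17 had groups without overlap, and the median was 0.22. The shares over all genes were 4.52% for rises, 3.36% for falls and 14.4% for groups without overlap. Cox7a2 (0.67 ± 0.10, adjusted p = 0.000925) and Cox7b (0.79 ± 0.19, adjusted p = 0.0172) encode subunits of cytochrome c oxidase, Uqcrb (0.57 ± 0.10, adjusted p = 0.00256) one of complex III, and Ndufb5 (0.54 ± 0.12, adjusted p = 0.0133) and Ndufa2 (0.43 ± 0.10, adjusted p = 0.0135) ones of complex I. Cox7a2 read 7.94, 7.65, 8.02 and 8.04 in SHPKO_WestD, against 7.33, 7.18, 7.25 and 7.19 in SHPKO_Chow. Its 2 groups were apart in every array. With median scaling the 2 falls were 0, and the call of Cox7b (without SHPKO_WestD replicate 4 and SHPKO_Chow replicate 1, highest adjusted p 0.0586) was lost.

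Of 20 measured male-biased genes, 2 rose and 1 fell, with a median of 0.14. Hsd3b5, a male-specific steroid reductase, read 11.03, 8.83, 11.06 and 10.66 in SHPKO_WestD, against 8.90, 8.16, 8.24 and 9.06 in SHPKO_Chow. SHPKO_WestD replicate 2 lay within the chow range and the other 3 above it (3.50-fold, 1.81 ± 0.48, adjusted p = 0.0269). Nudt7 (1.51 ± 0.24, adjusted p = 0.00140), a peroxisomal hydrolase of coenzyme A, rose, and Gstp1 (-0.70 ± 0.18, adjusted p = 0.0237), a glutathione transferase, fell. Of 9 measured female-biased genes, 1 rose and 1 fell, with a median of 0.16. Sult1e1, the estrogen sulfotransferase, was at background on chow and at least 2.02-fold higher on western diet (adjusted p = 0.000212). Cyp17a1 (-1.14 ± 0.25, adjusted p = 0.00988), a steroid hydroxylase and lyase, fell. The calls that did not hold in every leave-one-out fit were those of Hsd3b5 (5 of the 16 fits, highest adjusted p 0.0820 without SHPKO_Chow replicate 2, and also with a robust variance prior, adjusted p 0.0842) and Gstp1 (4 of the 16 fits, highest adjusted p 0.0806 without SHPKO_WestD replicate 2, and also in 3 of the 12 other settings, highest adjusted p 0.130 with median scaling).

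Of 25 measured P450 genes of families 1 to 3, 1 rose, Cyp2c70, and 3 fell, with a median of 0.17. Cyp1a2 (-0.96 ± 0.22, adjusted p = 0.0137), which oxidizes caffeine and aromatic amines, Cyp2f2 (-0.52 ± 0.14, adjusted p = 0.0321) and the drug-metabolizing Cyp3a11 (-0.49 ± 0.15, adjusted p = 0.0464) fell. Cyp2b10, a target of the receptor CAR, was -0.00 ± 0.46 (adjusted p = 0.999). Of 26 measured glutathione transferase and NRF2 genes, 2 rose and 2 fell, with a median of 0.13. Gsta1, which shares sequence with its paralog Gsta2, was at background on chow and at least 1.75-fold higher on western diet (adjusted p = 0.0459), and Gstk1 (0.31 ± 0.08, adjusted p = 0.0255) rose. Gstp1 and Gstt2 (-0.74 ± 0.19, adjusted p = 0.0222) fell. In the leave-one-out fits, the threshold was missed by Cyp2f2 (5 of the 16 fits, highest adjusted p 0.101 without SHPKO_Chow replicate 1, and also in 3 of the 12 other settings, highest adjusted p 0.271 with median scaling), Cyp3a11 (11 of the 16 fits, highest adjusted p 0.129 without SHPKO_WestD replicate 4, and also in 4 of the 12 other settings, highest adjusted p 0.350 with median scaling), Gsta1 (11 of the 16 fits, highest adjusted p 0.133 without SHPKO_WestD replicate 2, and also in 8 of the 12 other settings, highest adjusted p 0.101 with normexp), Gstk1 (5 of the 16 fits, highest adjusted p 0.0794 without SHPKO_WestD replicate 2, and also in 3 of the 12 other settings, highest adjusted p 0.0680 with median scaling) and Gstt2 (without SHPKO_WestD replicate 3, SHPKO_Chow replicate 3 and SHPKO_Chow replicate 4, highest adjusted p 0.0596, and also in 2 of the 12 other settings, highest adjusted p 0.0976 with median scaling).

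Of 16 measured immediate early and GADD45 genes, 1 rose and 4 fell, with a median of -0.16. Gadd45b and Gadd45g (-1.14 ± 0.23, adjusted p = 0.00560) fell while Gadd45a (1.34 ± 0.35, adjusted p = 0.0233), of the same family, rose. Cdkn1a (-1.61 ± 0.48, adjusted p = 0.0450), the p21 inhibitor of the cell cycle, and Jun (-0.62 ± 0.18, adjusted p = 0.0438), a subunit of AP-1, fell. Calls were lost for Gadd45a (4 of the 16 fits, highest adjusted p 0.0784 without SHPKO_Chow replicate 2, and also with a robust variance prior, adjusted p 0.0600), Cdkn1a (11 of the 16 fits, highest adjusted p 0.139 without SHPKO_Chow replicate 2, and also in 5 of the 12 other settings, highest adjusted p 0.118 with a robust variance prior) and Jun (7 of the 16 fits, highest adjusted p 0.132 without SHPKO_Chow replicate 2, and also in 7 of the 12 other settings, highest adjusted p 0.129 with median scaling). Of 15 measured proliferation genes 1 rose, Pcna, the DNA polymerase clamp, at least 1.23-fold from background on chow (adjusted p = 0.0246), with a median of 0.11 for the list. Leaving out 1 array ended the call of Pcna (without SHPKO_WestD replicate 2, SHPKO_WestD replicate 4 and SHPKO_Chow replicate 2, highest adjusted p 0.0836, and also in 2 of the 12 other settings, highest adjusted p 0.0799 with the 8 knockout arrays alone).

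Of 14 measured asparagine, serine and ATF4 genes, 2 rose and 1 fell, with a median of -0.12. Chac1, which degrades glutathione, read 7.09, 7.55, 7.30 and 7.11 in SHPKO_WestD, against 5.37, 5.56, 6.52 and 5.43 in SHPKO_Chow. SHPKO_Chow replicate 3 was the highest on chow and still below every western array (2.91-fold, 1.54 ± 0.23, adjusted p = 0.000925). Slc3a2, the heavy chain of amino acid transporters, was at least 1.38-fold higher than a background level on chow (adjusted p = 0.0466), and the transcription factor gene Atf5 (-0.48 ± 0.12, adjusted p = 0.0172) fell. Asns, asparagine synthetase, was -0.97 ± 0.36 (adjusted p = 0.103), and it passed without SHPKO_WestD replicate 4 (0.047). None of 15 measured ER chaperones and heat shock genes passed (median -0.14), with Pdia4 at -0.32 ± 0.14 and Dnajc3 at -0.24 ± 0.11 (adjusted p = 0.169 and 0.187). Of 17 measured methionine, one-carbon and taurine genes, Gamt (1.02 ± 0.25, adjusted p = 0.0172), the creatine-forming methyltransferase, rose and Ahcy (-0.74 ± 0.14, adjusted p = 0.00371), the hydrolase of adenosylhomocysteine, fell (median -0.01). The calls ended for Slc3a2 (10 of the 16 fits, highest adjusted p 0.141 without SHPKO_WestD replicate 4, and also in 7 of the 12 other settings, highest adjusted p 0.0842 with median scaling), Atf5 (without SHPKO_Chow replicate 2, highest adjusted p 0.0643, and also with median scaling, adjusted p 0.160) and Gamt (without SHPKO_WestD replicate 3, highest adjusted p 0.0520).

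Of 23 measured acute phase genes, 3 rose and 1 fell, with a median of 0.09: Hamp2, Saa4 (1.12 ± 0.23, adjusted p = 0.00768), a serum amyloid protein, and Orm1 (0.54 ± 0.15, adjusted p = 0.0293), orosomucoid, rose, and the fibrinogen chain gene Fgg (-0.48 ± 0.11, adjusted p = 0.0108) fell. Without SHPKO_WestD replicate 2, 5 rose. Of 19 measured apolipoprotein and lipoprotein assembly genes, Apoa4 and Apoc2 rose, and Mttp (-0.55 ± 0.13, adjusted p = 0.0172), which loads lipid onto apolipoprotein B, and Tm6sf2 (-0.49 ± 0.11, adjusted p = 0.0110), which acts in lipoprotein secretion, fell (median 0.04). With median scaling neither Mttp, Tm6sf2 nor Fgg passed (adjusted p = 0.0875, 0.121 and 0.242). Leaving out 1 array ended the calls of Orm1 (5 of the 16 fits, highest adjusted p 0.0856 without SHPKO_Chow replicate 2, and also without a detection filter, adjusted p 0.0511) and Mttp (without SHPKO_Chow replicate 2, highest adjusted p 0.0655).

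Of 27 measured nuclear receptors and coregulators, 1 rose, Pparg, and 3 fell, Ppargc1a, Hnf4a and Rora (-0.36 ± 0.10, adjusted p = 0.0391), a receptor that feeds into the clock (median -0.07). Of 15 measured circadian clock genes, Bhlhe40 (0.84 ± 0.25, adjusted p = 0.0427), a clock repressor, rose and Rora fell, and the median was 0.48. The clock list's mean level ranged widely within both groups, 7.40 to 7.91 in SHPKO_WestD and 7.02 to 7.93 in SHPKO_Chow. On leaving out 1 array, the test was no longer passed by Rora (8 of the 16 fits, highest adjusted p 0.114 without SHPKO_WestD replicate 4, and also in 2 of the 12 other settings, highest adjusted p 0.392 with median scaling) and Bhlhe40 (7 of the 16 fits, highest adjusted p 0.133 without SHPKO_Chow replicate 2, and also in 4 of the 12 other settings, highest adjusted p 0.0912 with a robust variance prior).

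The knockout response was set against that of wild type, in which 2693 genes passed (29.6%), 1407 higher and 1286 lower, on arrays that the knockout comparison does not share. Of the 717 knockout calls, 399 passed the same way in wild type, which is 55.6% of the knockout calls and 14.8% of the wild type calls, and 13 passed the opposite way. The remaining 305 did not pass in wild type, which does not make them particular to the knockout. The difference of the 2 diet effects, tested directly, passed for 641 genes (7.05%), 208 above 0 (2.29%) and 433 below 0 (4.76%). With median scaling 2082 genes rose and 290 fell in wild type, and 75 interactions were above 0 and 503 below. Of the probes, 48.8% to 51.1% were detected on the WT_WestD arrays and 43.6% to 46.6% on the WT_Chow arrays, outside the range of the other 3 groups for WT_WestD, and the part of this in the interactions was not tested. In 567 of the 641 the knockout difference was the smaller in size, and in 74 it was the larger. Of the 717 knockout calls, 104 were among the 641, and in 59 of these 104 the knockout difference was the larger.

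The 12 smallest interaction p values all belonged to genes with a large rise in wild type. Sdcbp2, a PDZ adaptor, read 4.61, 4.53, 4.28 and 4.48 in SHPKO_WestD, against 4.29, 4.40, 4.37 and 4.34 in SHPKO_Chow and 7.64, 7.56, 8.28 and 8.23 in WT_WestD, against 4.33, 4.60, 4.39 and 4.31 in WT_Chow. It was detected on all 4 WT_WestD arrays and on none of the other 12. It was at least 8.95-fold higher in WT_WestD than in WT_Chow (adjusted p = 1.52e-11), and its interaction passed (adjusted p = 2.89e-08). S100a11 rose in both genotypes, by 0.95 ± 0.16 in knockout and 3.76 ± 0.16, adjusted p = 1.52e-11 in wild type (interaction -2.81 ± 0.23, adjusted p = 6.99e-07). Anxa2 had an interaction of -2.66 ± 0.25, adjusted p = 4.66e-06 and Anxa5 one of -1.69 ± 0.17, adjusted p = 7.02e-06. Cd63, a tetraspanin of lysosomes, was 0.21 ± 0.20 in knockout and 2.66 ± 0.20, adjusted p = 2.35e-08 in wild type (interaction -2.46 ± 0.29, adjusted p = 4.41e-05). The keratin gene Krt8 was 0.23 ± 0.10 in knockout and 1.59 ± 0.10, adjusted p = 2.65e-09 in wild type (interaction -1.36, adjusted p = 1.21e-05). The heart-type fatty acid binding protein gene Fabp3 and Ifi27l2b were, like Sdcbp2, detected only on the 4 WT_WestD arrays, at least 2.21-fold and 2.13-fold higher than in WT_Chow (interaction adjusted p = 4.26e-06 and 6.11e-06). Both passed the detection filter through those arrays alone, so the same limit holds for their p values. The others were Fndc10 (-2.62), Uap1l1 (-2.34), Ntrk2 (-2.05) and Haus8 (-1.99), with adjusted p values of 3.45e-07, 7.02e-06, 5.84e-06 and 8.71e-06. The value of Ntrk2 came from its probe with the highest mean. Another Ntrk2 probe, with a smaller mean detection p, gave an interaction of -0.39 that did not pass (adjusted p = 0.384, every probe as its own feature). Of the 641 interaction calls, 53 had a group with no array detected, whose fitted sizes are not measured differences. Some of the 53, such as Ccl2, Ccl7, Tlr1 and Sirpa, also passed the detection filter only through WT_WestD.

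By list, the interaction was below 0 in 11 of 16 lipid-associated macrophage genes, 10 of 18 macrophage and Kupffer cell markers, 12 of 32 chemokine, cytokine and NF-kappaB genes, 10 of 20 lysosome genes, 11 of 28 fibrosis genes, 7 of 26 glutathione transferase and NRF2 genes and 5 of 15 annexins and S100 proteins. None of their members had one above 0. Over all genes the interaction was below 0 in 4.76% and above 0 in 2.29%. The macrophage list medians were 0.34 in knockout and 1.77 in wild type for the lipid-associated genes, and 0.23 and 1.38 for the general markers. Gpnmb was 1.35 ± 0.37 in knockout and 5.35 ± 0.37, adjusted p = 7.12e-09 in wild type (interaction -4.01 ± 0.53, adjusted p = 0.000168). Of the interferon genes 4 of 23 had an interaction below 0, and 1 of 23 without SHPKO_WestD replicate 3, SHPKO_Chow replicate 2 or 4, WT_WestD replicate 2 or WT_Chow replicate 1, and 2 of 23 without SHPKO_WestD replicate 2, WT_WestD replicate 3 or WT_Chow replicate 4. Of the lysosome genes 6 did so with median scaling. The macrophage and Kupffer cell markers averaged 8.82 to 9.38 in WT_WestD and 7.58 to 8.14 in WT_Chow, and their part in these differences was not tested.

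In the other direction, 10 of 20 male-biased genes had an interaction above 0 and 0 below, with list medians of 0.14 in knockout and -1.02 in wild type. Hsd3b5 read 4.44, 5.16, 4.26 and 4.57 in WT_WestD, against 9.01, 8.02, 6.72 and 9.29 in WT_Chow. It rose in knockout and fell in wild type, where western and chow arrays did not overlap (-3.65 ± 0.48, adjusted p = 1.64e-05; interaction 5.46 ± 0.68, adjusted p = 0.000100). Aatk, an apoptosis-associated kinase gene, rose in knockout (1.73 ± 0.32, adjusted p = 0.00409) and fell in wild type (-1.17 ± 0.32, adjusted p = 0.00994; interaction 2.90 ± 0.46, adjusted p = 0.000778). Alas2 and Nudt7 had interactions of 0.69 ± 0.14, adjusted p = 0.00573 and 1.40 ± 0.34, adjusted p = 0.0176, and Nudt7 was 0.0502 with a robust variance prior. In cholesterol synthesis, interactions were above 0 in 2 of 15 genes and below 0 in 0, against 2.29% and 4.76% of all genes. The 2 that passed did not include Sqle, Cyp51, Tm7sf2, Idi1 or Mvd. The interactions of Sqle (-0.84 ± 0.37, adjusted p = 0.194) and Cyp51 (-0.08 ± 0.32, adjusted p = 0.922) did not pass. Outside that list, those of Scd1 (-0.28 ± 0.20, adjusted p = 0.451), Srebf1 (-0.34 ± 0.41, adjusted p = 0.685) and Pparg (0.33 ± 0.26, adjusted p = 0.514) did not pass either. This does not show that the effects were equal.

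**Figure D4:**
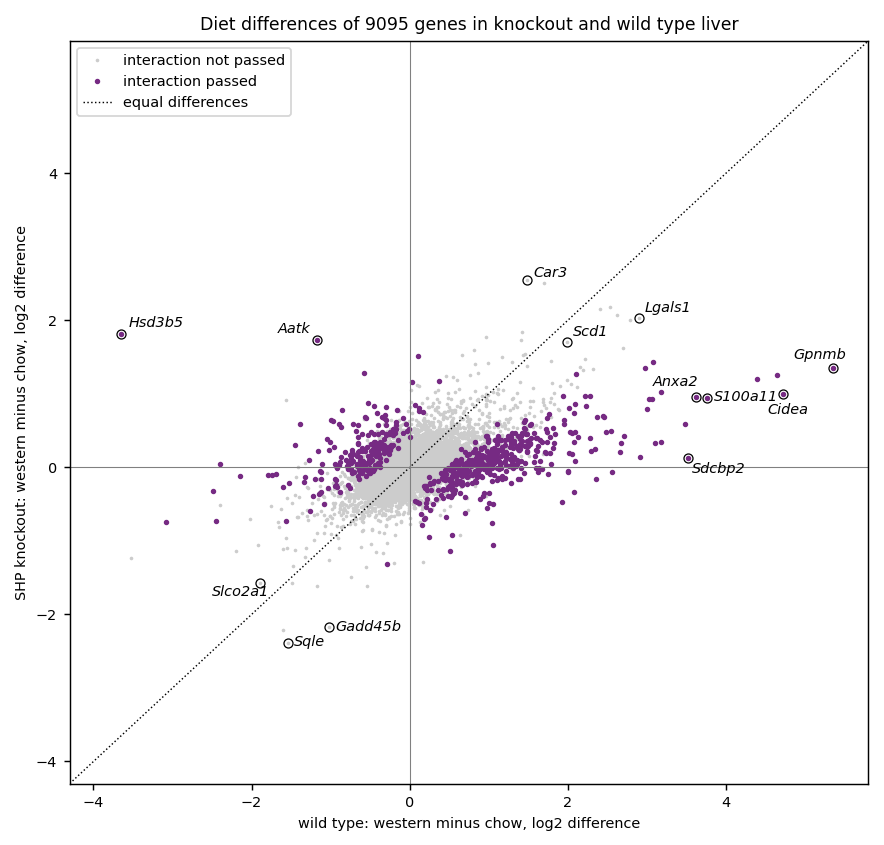
Western diet minus chow on the log2 scale for 9095 genes, wild type on the horizontal and knockout on the vertical axis (purple, the 641 genes whose interaction passed; grey, the others; dotted line, equal differences). Gpnmb, at 1.35 in knockout and 5.35 in wild type, and S100a11 lie far below the dotted line at the right, and Hsd3b5, at 1.81 in knockout and -3.65 in wild type, lies above it at the left.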

How the data were processed

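Liver RNA (1 µg of total RNA per mouse, RNeasy) was labelled as biotinylated cRNA and hybridised to Illumina BeadChips, per the labels' protocols. The non-normalized table that the authors deposited pairs a raw signal intensity with a detection p-value for each probe on each array, per the file headers, and came from BeadStudio, per the submitters' processing notes. The authors' processed intensity values, with negative values and settings not given in the sources used here, served as an alternative. Each array's processed values matched its own raw signal (Spearman's rho at least 0.999993, against at most 0.913 for any other array).

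Raw signals (25697 probes) were put through neqc, which corrects background, quantile-normalizes and takes log2 (limma 3.58.1, R 4.3.3, offset 16). A probe was kept (13196 were) when its detection p was under 0.05 on 4 or more of the 16 arrays. The platform annotation named 23978 probes with 1 gene, 1719 with none and 0 with several, and 23962 matched the GRCm38.p6 gene table. Of the kept probes 12421 were named, and the highest-mean probe was used for each of 9095 genes, 2386 of which had several. Another detected probe of the gene pointed the other way in 31 of the 207 called genes that had one. A gene detected on no array of a group has a fold that is a lower bound, as stated.

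All 16 arrays were fitted together with a mean for each group (lmFit, eBayes with an intensity trend, 12 residual and 6.82 prior degrees of freedom). The members, the 37 gene lists, the 20 key genes and the tests were chosen with earlier results of these data known, and no list was tested as a set. Genes stand in more than 1 list in places. Named genes were the key genes, the 12 largest rises and 12 largest falls among genes that passed without overlap of the groups, up to 5 passed members of each list (or 2 where none passed), and the 12 smallest interaction p values. In simulated arrays with 200 changed genes of 9095, the fit recovered 96% of changes of 1 log2 unit and 51% of 0.5, and 9.26% of its calls were unchanged genes. The simulated noise was normal and independent between genes, with the fitted variances, no array effects and no wild type response. These rates may therefore not hold for the real arrays. Slides and scan batches are not given in the sources used here. Deviations of same-numbered mice from their group means correlated across the diets at -0.0037, -0.0524, 0.177 and -0.0621 in knockout. In wild type the correlations were 0.186, -0.139, -0.0254 and -0.1. Knockout replicate 3 and wild type replicate 1 matched their own number best, and the others did not. The labels give no pairing, so the numbers were not taken as pairs. The number of arrays limits the precision. Figures were made in Python 3.11.15 with matplotlib 3.10.9.

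Other settings tried were quantile normalization alone, normexp without negative controls (offset 50), median scaling, the authors' processed values, no or a strict detection filter (p below 0.01), the mean of a gene's probes, every probe alone, the 8 knockout arrays alone, array weights, a variance prior made robust, a replicate block, and 16 fits that each leave out 1 array. With every probe alone, a named gene was read from its probe with the smallest mean detection p.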

Additional observations from a re-analysis of the deposited data

Results flagged for a closer look

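In 16 of the 262 groups of 4 arrays examined (2 groups for each of 131 named genes), the highest or lowest array was separated from the nearest other by a larger share of the group's whole range than Dixon's critical value. Chance flags about 1 in 20 groups. In SHPKO_WestD, the separate array was the lowest one, replicate 3, for Cidec (6.69 against 7.16 to 7.25), the highest one, replicate 1, for Col6a1 (7.52 against 6.96 to 7.03), the highest one, replicate 3, for Cyp2c70 (13.59 against 12.32 to 12.52), the lowest one, replicate 3, for Cyp4a14 (10.92 against 13.70 to 14.03), the highest one, replicate 3, for Lcn2 (9.52 against 8.90 to 8.99), the lowest one, replicate 4, for Rora (8.12 against 8.33 to 8.36), the highest one, replicate 4, for Slc3a2 (5.82 against 4.97 to 5.11) and the lowest one, replicate 1, for Uqcrb (10.46 against 10.73 to 10.75). In SHPKO_Chow, the separate array was the highest one, replicate 1, for Anxa5 (9.68 against 9.25 to 9.26), the highest one, replicate 3, for Chac1 (6.52 against 5.37 to 5.56), the highest one, replicate 2, for Cidea (5.03 against 4.26 to 4.39), the lowest one, replicate 2, for Col1a1 (4.34 against 4.54 to 4.58), the highest one, replicate 2, for Cyp1a2 (11.96 against 10.83 to 10.91), the highest one, replicate 4, for Npc2 (7.93 against 7.83 to 7.84), the highest one, replicate 4, for Rgn (5.70 against 4.98 to 5.09) and the lowest one, replicate 2, for Slco2b1 (11.08 against 11.42 to 11.46).

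The interaction, which is the knockout diet difference less the wild type one, tested with limma, passed for 37 of the named genes. It was above 0 for Hsd3b5 (5.46), Aatk (2.90), Nudt7 (1.40), Cela1 (1.24), Cyp8b1 (1.14) and Alas2 (0.69). It was below -2 for Gpnmb (-4.01), Cidea (-3.71), S100a11 (-2.81), Cidec (-2.76), Anxa2 (-2.66), Fndc10 (-2.62), Cd63 (-2.46), Uap1l1 (-2.34), Lgals3 (-2.20), Lcn2 (-2.16) and Ntrk2 (-2.05). The other negative values were those of Haus8 (-1.99), Anxa5 (-1.69), Cyp17a1 (-1.65), Krt8 (-1.36), Jun (-1.32), Oasl2 (-1.31), Mmp14 (-0.88), S100a10 (-0.86), Abcg5 (-0.82), Grn (-0.75), Npc2 (-0.71), Atf5 (-0.60) and Hexa (-0.47). For Sdcbp2 (-3.39), Gsta1 (-3.20), Col3a1 (-1.77), Fabp3 (-1.60), Col1a1 (-1.54), Ifi27l2b (-1.43) and Tuba8 (-1.03), at least 1 group had the gene detected on no array, so these fitted values do not measure the size of the difference. Sdcbp2, Fabp3 and Ifi27l2b passed the detection filter only through the WT_WestD arrays, where they were high. The call was lost on leaving out 1 array for Atf5 (8 of the 16 fits, highest adjusted p 0.0776 without WT_WestD replicate 2, and also in 2 of the other settings, highest adjusted p 0.130 with median scaling), Cyp8b1 (13 of the 16 fits, highest adjusted p 0.0991 without WT_WestD replicate 2, and also in 3 of the other settings, highest adjusted p 0.0980 with a robust variance prior), Mmp14 (11 of the 16 fits, highest adjusted p 0.0849 without WT_WestD replicate 2, and also without a detection filter, adjusted p 0.0556), Oasl2 (8 of the 16 fits, highest adjusted p 0.0745 without WT_Chow replicate 1, and also in 4 of the other settings, highest adjusted p 0.122 with the mean of its probes) and Tuba8 (11 of the 16 fits, highest adjusted p 0.0911 without WT_WestD replicate 2, and also in 5 of the other settings, highest adjusted p 0.0855 without a detection filter). It was lost with median scaling for Grn (adjusted p = 0.0917), Hexa (0.103) and Npc2 (0.0539), with a robust variance prior for Cidea (0.0561) and Nudt7 (0.0502), and with every probe as its own feature for Ntrk2 (0.384).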

How the results depend on the processing

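Of the 99 named genes that passed in knockout, 54 passed in all 16 leave-one-out fits, 56 in the 12 other alternatives, and 48 in both. Of the 37 named interactions, 32 passed in all 16 leave-one-out fits and 26 in all alternatives that could give one. Of the 717 calls, 271 were made in all 16 leave-one-out fits. With median scaling 347 genes passed in knockout, of which 50 fell, 290 fell in wild type (1286 without it), and 75 interactions were above 0; without a detection filter 132 interactions were above 0. On leaving out 1 array, the knockout count ranged from 359 to 742, its rises from 204 to 441 and its falls from 155 to 301. The wild type count ranged from 2241 to 2772 and that of the interaction from 458 to 714. Without SHPKO_WestD replicate 2, 201 genes fell, and without SHPKO_WestD replicate 4, 269 rose. With the replicate block 682 genes passed (391 higher, 291 lower), 624 of them shared with the 717. The knockout difference of Ntrk2 reversed to -0.13 (adjusted p = 0.695) with every probe as its own feature, where another of its probes was read. Of the 99, 30 lost their call with median scaling, 18 without a detection filter and 18 with the 8 knockout arrays alone, and 23 were over 1.5 times smaller without background correction, 26 with normexp and 5 with median scaling. Counts of 1 to 3 members in a list moved by at most 2 on leaving out 1 array, other than the 3 rises in fatty acid and triglyceride synthesis (3 to 6). The causes were not tested. Genes detected on no array of a group carry only a bound.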
